A study of Homo sapiens with 6 samples.

Results

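The genes of the cytosolic ribosomal proteins were described in 3 RNA pools of HT-29 xenografts. They were chosen by symbol, as RPL or RPS followed by a number with an optional A, X or L, together with RPLP0, RPLP1, RPLP2 and RPSA. Ribosomal S6 kinases, pseudogenes and Y-linked genes were left out. The annotation of the array named such a gene on 186 of 54675 probe sets. Probe sets that named a gene alone, or together with snoRNAs, which are often encoded in introns of ribosomal protein genes, were taken as its own, and the own probe set of highest mean stood for the gene. This gave 71 ribosomal protein genes of 19786 genes, 46 of the large and 25 of the small subunit. A gene was called detected in a comparison where either pool had a mean of at least 5 on the log2 scale, which held for 67 of the 71 (42 large, 25 small).

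HT-29 is an established human colorectal adenocarcinoma cell line. Its cells were placed in the left and right femoral regions of Balb/c (nu/nu) mice, which lack a thymus, at an age of 6 to 8 weeks. The treated group consisted of tumours given 30 min of electromagnetic heating on day 18 and taken 4 h later. The second group was the unheated opposite-side tumours of the treated animals, and the third was control xenografts, whose sampling time the labels do not give separately. Each group was a single RNA pool, hybridised to 2 arrays that the labels call technical replicates. No test between conditions was possible, no p-value is given, and the only measured error is the gap between 2 technical arrays. The comparisons describe 3 pools of an unstated number of animals, and the comparisons with the treated pool share that pool.

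Cytosolic ribosomes have a small subunit, which reads the mRNA, and a large subunit, which joins the amino acids. Each holds ribosomal RNA and a fixed set of proteins, most of them needed in a single copy per ribosome. The mRNAs of these proteins are among the most abundant of a growing cell. They typically begin with a C followed by a run of pyrimidines, the 5′ terminal oligopyrimidine (TOP) motif, through which mTOR signalling and the binding protein LARP1 control their translation together. An array measures the mRNA level and not its translation. A few ribosomal proteins have a like-named paralogue, such as RPL22L1 beside RPL22, of which some are expressed mainly in testis or muscle.

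The starts of the genes on which the results turn are shown because the TOP motif is the sequence feature these mRNAs are known to share. Each line gives 10 bases before and 20 bases from the RefSeq start of the gene on GRCh38.p14, read 5′ to 3′ on the gene's strand. Capitals mark the unbroken run of C and T from the annotated start. RPL10 and RPL36 had the most negative differences between the treated and the control pool, RPL6 and RPS25 the most positive, and RPS6 the most positive difference between the treated and the opposite-side pool. RPL26L1 is a paralogue that passed the size rule below, and the last 6 lines set paralogues beside their partners. RPL10 has 3 entries and RPL26L1 and RPL6 have 2 each, of which the first line shows the RPL10 entry with the longest run.
RPL10 (chrX:154398367-154398396, + strand): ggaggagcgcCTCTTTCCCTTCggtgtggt
RPL36 (chr19:5690285-5690314, + strand): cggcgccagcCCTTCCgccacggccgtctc
RPL26L1 (chr5:172958719-172958748, + strand): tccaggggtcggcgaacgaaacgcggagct
RPL6 (chr12:112409266-112409295, - strand): gacggcgcgtgcactgtgttcctggtcctg
RPS25 (chr11:119018324-119018353, - strand): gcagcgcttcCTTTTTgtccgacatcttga
RPS6 (chr9:19380217-19380246, - strand): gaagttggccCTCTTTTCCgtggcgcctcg
RPS27 (chr1:153990752-153990781, + strand): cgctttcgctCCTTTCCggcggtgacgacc
RPS27L (chr15:63157458-63157487, - strand): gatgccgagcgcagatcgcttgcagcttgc
RPL22 (chr1:6199576-6199605, - strand): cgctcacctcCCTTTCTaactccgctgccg
RPL22L1 (chr3:170870176-170870205, - strand): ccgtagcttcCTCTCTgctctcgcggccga
RPL36A (chrX:101391001-101391030, + strand): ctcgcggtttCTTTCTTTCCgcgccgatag
RPL36AL (chr14:49620607-49620636, - strand): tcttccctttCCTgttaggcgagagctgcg

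RefSeq promoter entries were matched by symbol for 59 of the 71 genes. In 41 of the 59 (69.5%) at least 1 annotated start was a C that opened a run of at least 5 C or T, against 5.14% of 27305 genes with an entry. Without the like-named paralogues the count was 40 of 53 (75.5%), and of 6 like-named paralogues only RPL22L1 had such a start. A missing run says only that these letters do not follow the annotated start, and an annotated start can lie some bases from the one used in a cell. Over 250 bases before to 50 after the start, on both strands, the GC box GGGCGG was found in 62.7% of the members and in 48.3% of all genes. CCGGAAG, a core of ETS factor sites, was found in 37.3% against 12.2%, AAGATGG, a core of YY1 sites, in 13.6% against 7.11%, and TATAAA in 10.2% against 14%. These letter matches are descriptions and not evidence of binding. Members with a start of this kind had a median difference between the treated and the control pool of -0.089 (40 detected genes), and members with an entry but no such start had -0.083 (17 genes).

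Ribosomal protein mRNAs lay near the top of the measured range in all 3 pools. Of the 67 detected genes, 60 had a mean of at least 12 over the 6 arrays, where only 113 genes of the whole table lay. The table's values ran from 2.37 to 14.51, and the detected members ran from 7.89 (RPL26L1) to 14.36, with a median of 13.37. Levels of different probe sets depend on their probes, so the order of genes by level was not read. The arrays of a pool differed little for these genes, with a median absolute difference of 0.012 in the control, 0.010 in the treated and 0.014 in the opposite-side pool. Over all genes with a 6-array mean of at least 5 it was 0.046 to 0.055. Only 5.59% of those genes had a mean of at least 10, against 95.5% of the detected members. The gap was not computed for other genes of the same level. The widest gaps between 2 arrays of a pool were 0.120 for RPL26L1 in the treated pool and 0.085 for RPS16 in the opposite-side pool.

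The treated pool was set against the control pool to see how the ribosomal protein mRNAs stood 4 h after heating. Most of them were slightly lower in the treated pool, by a median of less than 0.1 on the log2 scale, which is a few percent. Over the 67 genes the median difference was -0.083 (quartiles -0.158 and -0.040, range -0.402 to 0.061), against -0.016 over all 7216 detected genes. It lay between -0.082 and -0.074 in each of the 4 pairings of a treated with a control array. For 56 members both treated arrays lay below both control arrays, for 6 both lay above, and 5 overlapped, where 40.5% of all detected genes lay below in this way and 34.7% above. Few of these differences were large. By the size rule, a difference of at least 0.25 (1.19-fold) with all 4 array pairs on one side and the higher pool at or above 5, 3 members fell (RPL10, RPL36 and RPL26L1) and 0 rose, against 15.5% and 14.6% of all detected genes. No member differed by 1 (2-fold), which 0.097% of detected genes did downward and 0.624% upward.

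**Figure D1:**
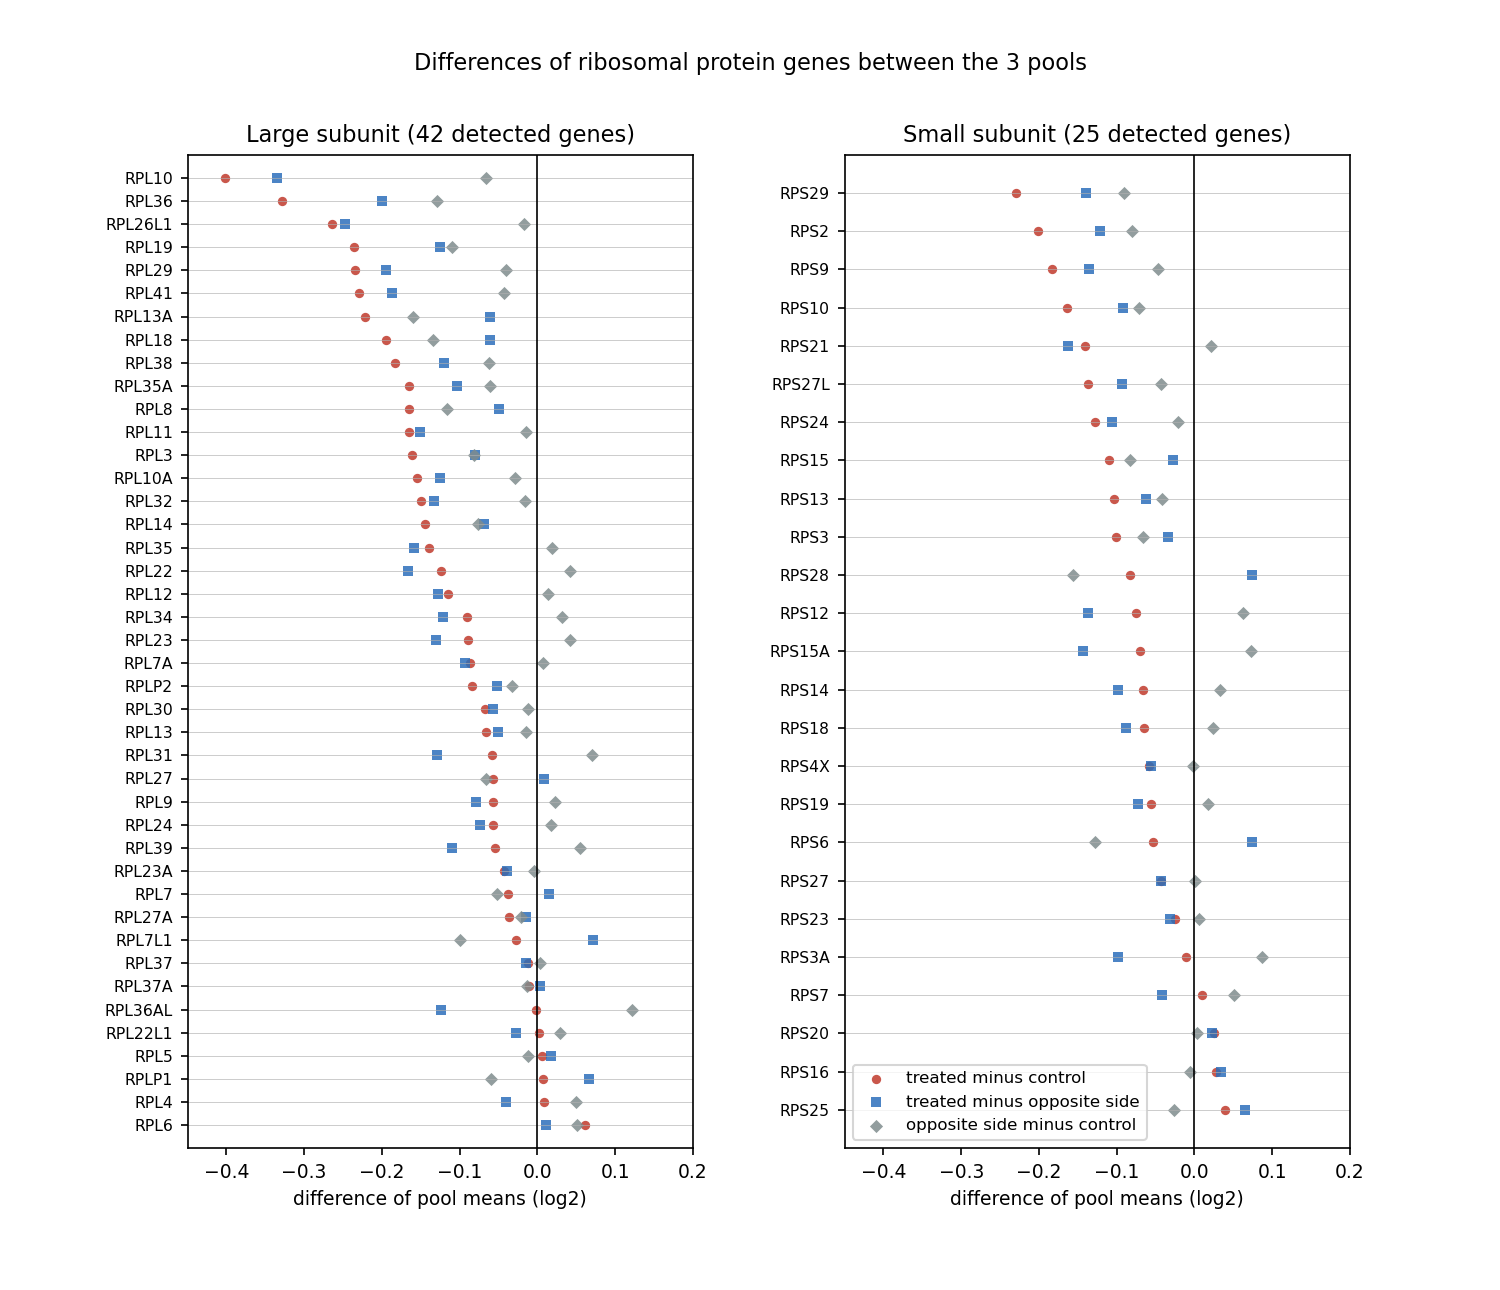
Difference of pool means (log2) of each of the 67 detected ribosomal protein genes, large subunit on the left and small subunit on the right, with a circle, square or diamond for each of the 3 comparisons. In treated minus control 58 of the 67 genes lie below 0, from -0.402 for RPL10 to 0.061 for RPL6.

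RPL10, a protein that joins the large subunit late in its assembly, had the most negative difference. Its log2 values were 12.13 and 12.13 on the control arrays, 11.73 and 11.73 on the treated arrays, and 12.07 and 12.06 on the opposite-side arrays. Both treated arrays lay below the other 4, and the fall against the control pool was 1.32-fold (-0.402). RPL36, a large subunit protein, stood at 12.48 and 12.48 in the control pool, 12.13 and 12.16 in the treated pool, and 12.34 and 12.36 in the opposite-side pool. It fell 1.26-fold (-0.329) against control, and the opposite-side arrays lay between the others. RPL26L1, the paralogue of RPL26, stood at 7.97 and 8.00 in the control pool, 7.78 and 7.66 in the treated pool, and 7.96 and 7.97 in the opposite-side pool. It fell 1.20-fold (-0.265), with the widest gap between treated arrays of any member.

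Just short of the 0.25 limit were RPL19 (-0.236) and RPL29 (-0.235), both of the large subunit, RPL41, which encodes a very short protein (-0.230), RPS29 of the small subunit (-0.230) and RPL13A (-0.222). RPL19 stood at 13.38 and 13.37 in the control pool, 13.15 and 13.14 in the treated pool, and 13.28 and 13.26 in the opposite-side pool. RPL29 stood at 12.67 and 12.70, 12.46 and 12.44, and 12.66 and 12.64 in the same order. For both genes the treated arrays were the lowest pair and overlapped with neither other pool.

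The 6 members whose treated arrays both lay above the control arrays were RPL4, RPL6, RPS7, RPS16, RPS20 and RPS25, with differences of 0.008 to 0.061. RPL6, of the large subunit, stood at 13.34 and 13.33 in the control pool, 13.40 and 13.39 in the treated pool, and 13.39 and 13.38 in the opposite-side pool. RPS25, a small subunit protein needed for translation from some viral internal ribosome entry sites, stood at 13.68 and 13.68, 13.72 and 13.71, and 13.67 and 13.63 in the same order. The direction for RPL6, RPS16, RPS20 and RPS25 was the same under all 4 scalings tried, while that of RPS7 was negative under quantile normalization (-0.0097) and spike-in scaling (-0.0048), and that of RPL4 under spike-in scaling (-0.0063). A second probe set with a mean of at least 10 lay below 0 for RPL4 (-0.083 and -0.072 for the other 2), RPS7 (-0.041), RPS16 (-0.061 and -0.079) and RPS20 (-0.024), so for these 4 genes the sign depended on the probe set. RPL6 and RPS25 had a single own probe set.

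The unheated opposite-side tumours were the other reference for the treated tumours. Against them too most ribosomal protein mRNAs were slightly lower in the treated pool. The median difference was -0.080 over 67 genes, against 0.014 over 7167 detected genes, and lay between -0.084 and -0.080 in the 4 array pairings. Both treated arrays lay below both opposite-side arrays for 53 members, above for 8, and 6 overlapped, where 33.3% of detected genes lay below and 38.6% above. By the size rule only RPL10 fell (-0.336, 1.26-fold) and 0 rose, against 9.73% and 14.6% of detected genes. With arrays set to one spike-in median, 39 members were lower and 0 higher by this rule, against 33.9% and 4.52% of detected genes. No member differed by 1 as deposited, against 0.0558% of detected genes downward and 0.279% upward. RPL26L1 (-0.247), RPL36 (-0.200), RPL29 (-0.195) and RPL41 (-0.187) followed. RPL41 stood at 14.20 and 14.25 in the treated pool, 14.41 and 14.41 in the opposite-side pool, and 14.44 and 14.46 in the control pool, with the treated pair lowest.

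The members most positive in treated minus opposite side were RPS6 (0.075), RPS28 (0.074), RPL7L1 (0.072), RPLP1 (0.067) and RPS25 (0.066). RPS6, the substrate after which the S6 kinases are named, stood at 13.49 and 13.50 in the control pool, 13.44 and 13.44 in the treated pool, and 13.37 and 13.37 in the opposite-side pool. RPS28 stood at 13.55 and 13.57, 13.48 and 13.48, and 13.42 and 13.40 in the same order. On the probe sets that stood for both genes the opposite-side pool was the lowest of the 3 and the treated pool lay between. The differences of both from the opposite side were above 0 as deposited, with arrays set to one median and under quantile normalization. They were below 0 under spike-in scaling (-0.115 for each), where the median of all detected genes was itself -0.179. Other RPS6 probe sets with means above 13 gave -0.012 and 0.050 against the opposite side. In opposite side minus control they gave 0.005 and -0.001, so the order of the pools for RPS6 depended on the probe set.

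The opposite-side and control pools, neither of them heated, were nearly level for these genes. The median difference of opposite side minus control was -0.015 over 67 members, against -0.019 over 7194 detected genes, and turned positive with arrays set to one median (0.019) and with spike-in scaling (0.161). Both opposite-side arrays lay below both control arrays for 32 members, above for 20, and 15 overlapped, where 42.4% of detected genes lay below and 34.0% above. By the size rule 0 members fell and 0 rose, against 17.8% and 12.1% of detected genes, and none differed by 1, against 0.167% and 0.236%. RPL13A, which can leave the ribosome to act in translational silencing, had the most negative difference (-0.161), followed by RPS28 (-0.157), RPL18 (-0.135), RPL36 (-0.130) and RPS6 (-0.128). Other RPS6 probe sets with means above 13 gave 0.005 and -0.001. RPL13A stood at 12.27 and 12.30 in the control pool, 12.04 and 12.09 in the treated pool, and 12.11 and 12.14 in the opposite-side pool, so the opposite side lay nearer to the treated pool. Probe sets that name RPL13A together with a pseudogene gave -0.112 to -0.0135. Not all of them put the opposite side nearer to the treated pool. The most positive were RPL36AL (0.122), RPS3A (0.087), RPS15A (0.073), RPL31 (0.071) and RPS12 (0.063).

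Across the 3 pools, the treated pool was the lowest for 52 of the 67 members, the opposite-side pool for 10 and the control pool for 5. The highest was the control pool for 37, the opposite-side pool for 24 and the treated pool for 6. Both treated arrays lay below all 4 other arrays for 49 members, which held for 20.6% of 7015 genes with a 6-array mean of at least 5. They lay above all 4 for RPL6, RPS20 and RPS25, which held for 20.8% of those genes. The differences in these 3 comparisons are not independent, since each pool enters 2 of them.

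**Figure D2:**
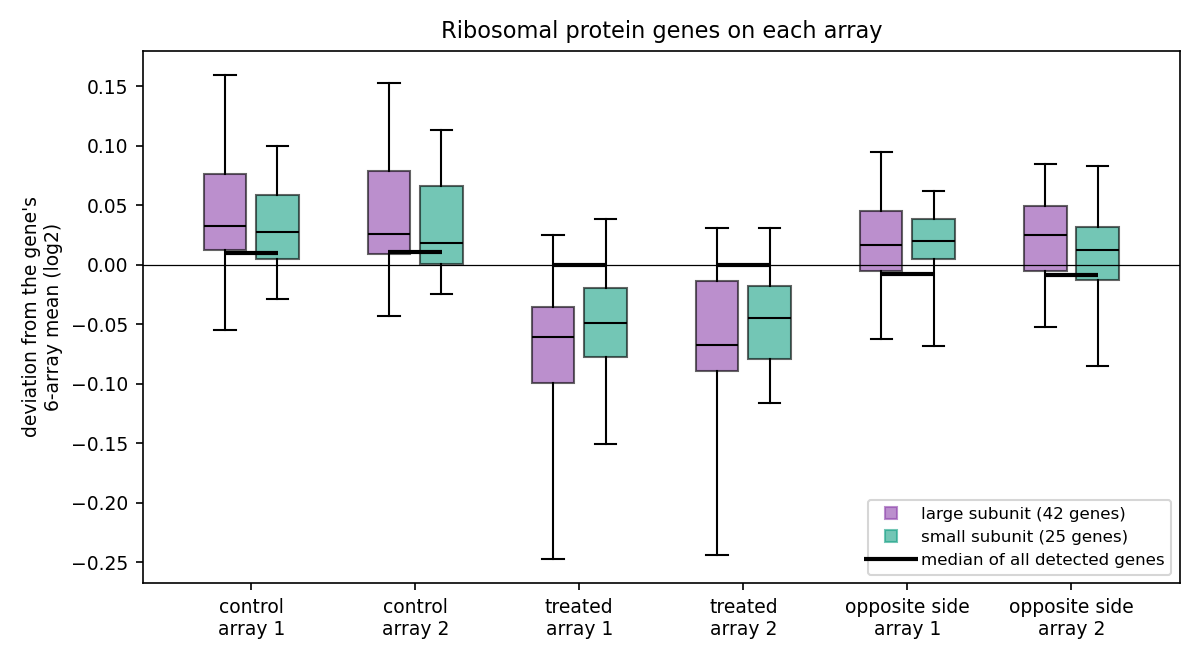
Deviation of each member gene from its own mean over the 6 arrays (log2), by array, for 42 large subunit and 25 small subunit genes. Boxes span the quartiles, whiskers the full range, and the black bar is the median of all genes with a 6-array mean of at least 5. Medians of the large subunit are -0.061 and -0.067 on the treated arrays and 0.017 to 0.033 on the other 4.

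Large and small subunit genes stood close together in every comparison. In treated minus control the median was -0.088 over 42 large subunit genes and -0.070 over 25 small subunit genes, a gap of -0.018 that ranged from -0.023 to -0.013 over the 4 array pairings. The size rule found 3 large and 0 small subunit genes lower. The treated arrays lay below the control arrays for 35 of the 42 large and 21 of the 25 small subunit genes, and above for 2 and 4. In treated minus opposite side the medians were -0.080 and -0.073, and the gap was -0.0068 (-0.019 to -0.0025). In opposite side minus control they were -0.016 and -0.0055, and the gap of -0.010 changed sign over the array pairings (-0.016 to 0.011). The gap was smaller than the quartile range of the genes within a subunit, which was -0.166 to -0.039 for the large and -0.128 to -0.043 for the small subunit in treated minus control. The gap between subunits also changed sign under quantile normalization in treated minus opposite side (0.016) and opposite side minus control (0.0011).

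Since the members lie near the top of the range, they were set beside other genes of the same level. Among genes with a pool mean of at least 12, the median of treated minus control was -0.084 over 62 members and 0.029 over 60 other genes. The arrays of these other genes lay apart below 0 for 30% and above 0 for 55%. In treated minus opposite side the medians were -0.077 over 62 members and -0.004 over 57 other genes, of which 43.9% lay apart below and 36.8% above. Between the opposite side and control they were -0.015 and 0.061 (58 other genes, 25.9% below and 67.2% above). With the bar at 10, the other genes stood at 0.010 (353 genes), -0.011 (354) and 0.030 (345). Among members, treated minus control was -0.166 for 15 genes between 12 and 13, -0.067 for 39 between 13 and 14, and -0.051 for 8 at 14 or above. Above 12 the medians thus lay nearer to 0 at higher levels, but the 5 members below 12, all of them like-named paralogues, had the median nearest to 0 (-0.028). Whether the array signal saturates at the top was not tested.

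**Figure D3:**
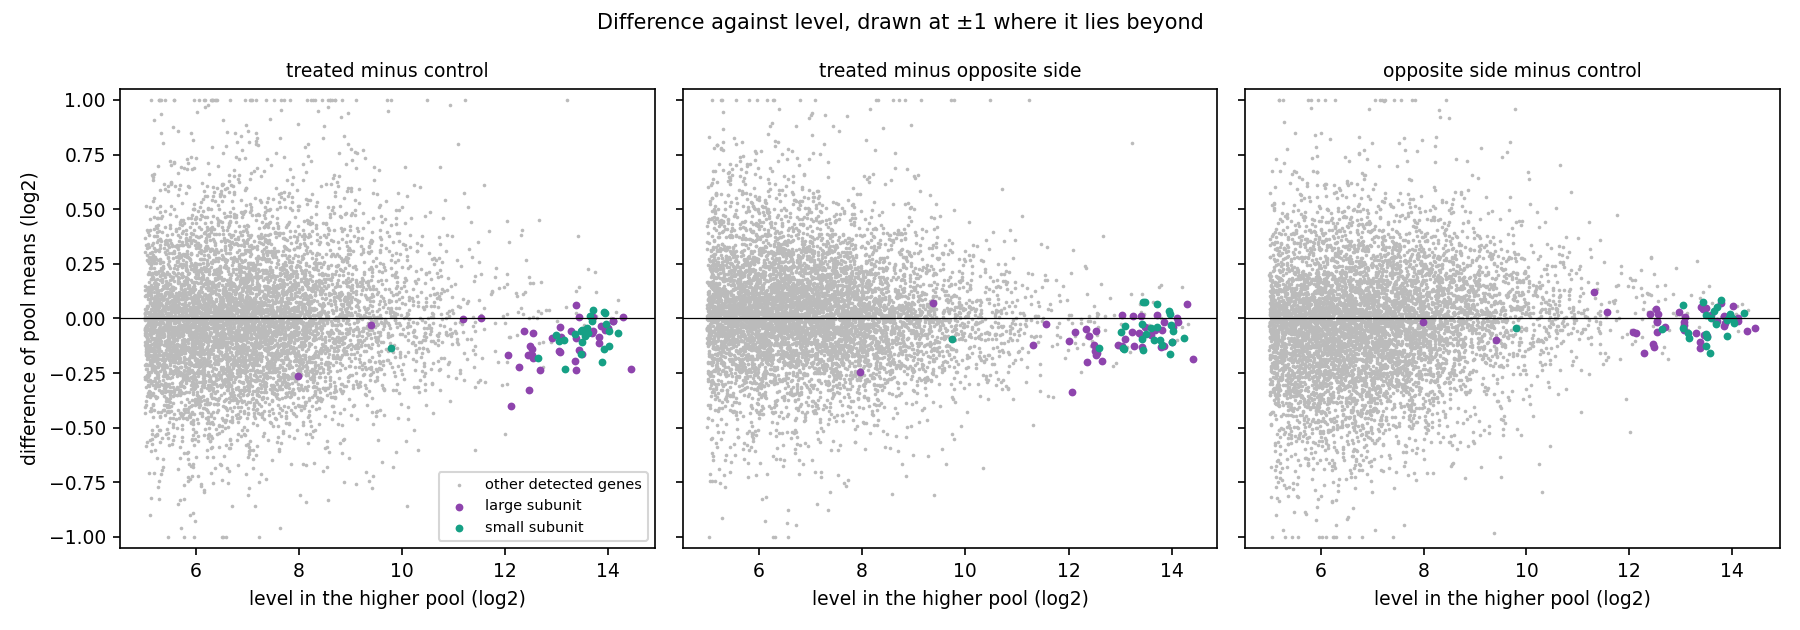
Difference of pool means (log2) against the level in the higher pool (log2), 1 panel per comparison, with ribosomal protein genes coloured by subunit over all other detected genes in grey; values beyond 1 or -1 are drawn at that limit. The members gather at levels of 12 to 14.4, mostly below 0 in both comparisons that involve the treated pool.

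Probe sets of one gene gave different sizes and, for some genes, different signs. Of the 186 probe sets, 121 named 1 gene, 46 also named snoRNAs and 19 were shared with other genes, and 148 were detected (93, 38 and 17). For 35 genes 2 or more own probe sets were detected, 99 in all, and the median range of levels within a gene was 3.62 on the log2 scale. Within a gene, treated minus control had a median range of 0.091, which is as large as the median difference itself. All probe sets lay below 0 for 22 of the 35 genes, on both sides for 13, and above 0 for none. In treated minus opposite side the median range was 0.086 (19 below, 1 above, 15 on both sides), and in opposite side minus control 0.076 (13, 6 and 16). Restricted to the 24 genes with 2 or more probe sets of a mean of at least 10, the median ranges were 0.060, 0.048 and 0.037.

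The narrowest range in treated minus control was 0.0025 for RPS4X and the widest 0.928 for RPL37A, whose probe sets stood at -0.569, 0.359 and -0.011, the last being the one with the highest level. RPS2, of the small subunit, had the next widest range, 0.512, with all 3 probe sets below 0 (-0.583 to -0.071). RPL31, with a range of 0.441, had 0.382 on a probe set of level 8.25 in the control pool and -0.059 on its highest. The widest ranges of level were those of RPL31 (8.80), RPL37 (8.61), RPL14 (8.18), RPL37A (7.83) and RPS3A (7.76). RPL14 lay below 0 on all 3 probe sets (-0.260 to -0.145), RPL37 on both sides (-0.178 to 0.119) and RPS3A between -0.012 and 0.052. For RPL10 the second detected own probe set, at 7.67 in the control pool and 7.02 in the treated pool, gave -0.652, and a probe set shared with NDUFS5 gave -0.329, so the 3 detected probe sets had the same sign. For RPL5 the second probe set above 10 gave -0.179 where the representative gave 0.0055.

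**Figure D4:**
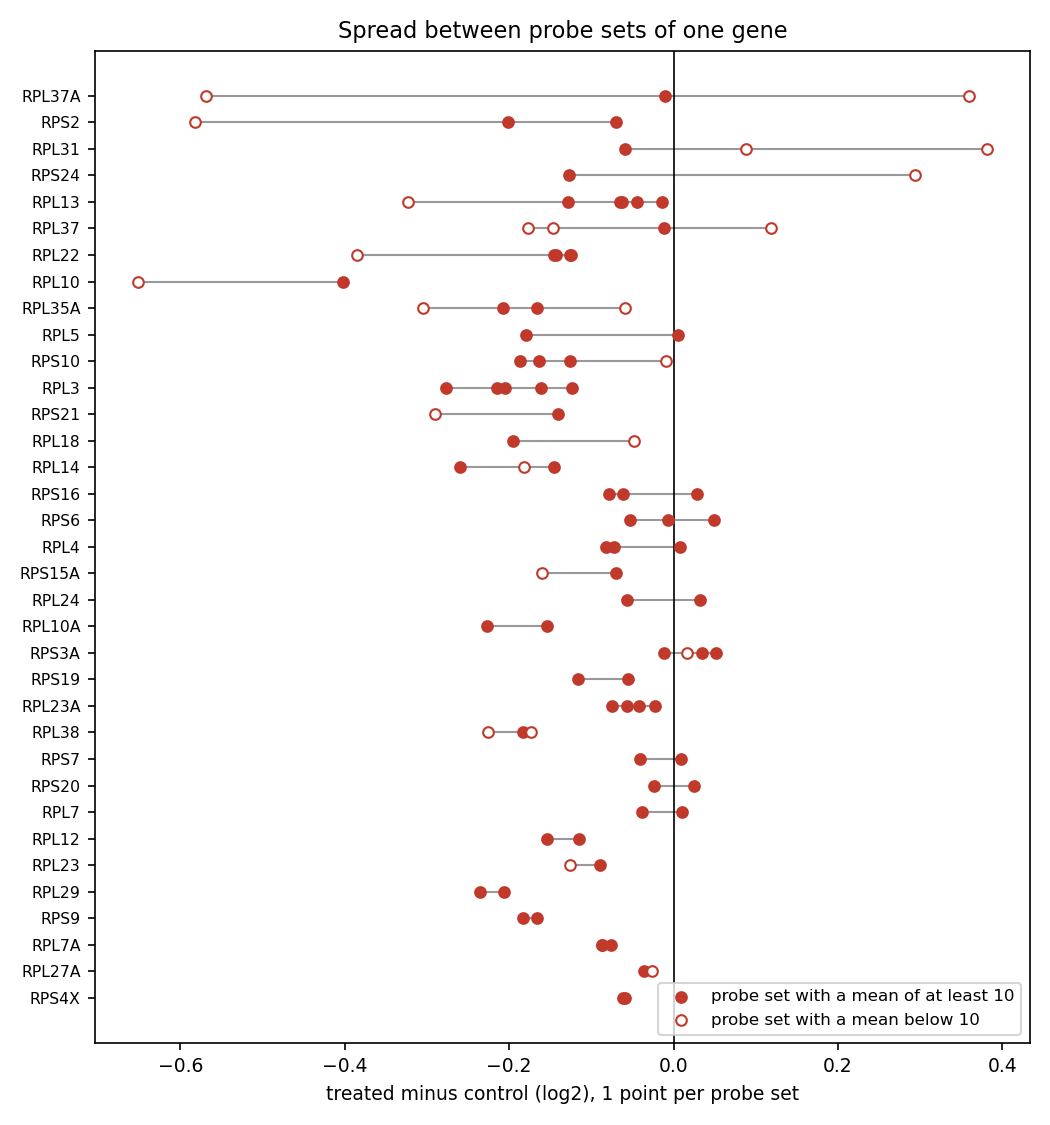
Treated minus control (log2) for every detected own probe set of the 35 genes that have at least 2, 1 row per gene and 1 point per probe set, filled where the probe set's mean is at least 10. The median range of filled points is 0.060 over the 24 genes that have at least 2 of them, and for RPL5 they lie at -0.179 and 0.0055. The widest row is RPL37A, from -0.569 to 0.359.

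By kind of probe set, treated minus control had a median of -0.160 for 33 probe sets with the plain suffix _at, -0.068 for 47 with _s_at and -0.086 for 68 with _x_at, the suffixes that mark probes matching several transcripts or sequences. The 31 probe sets of level 5 to 10 stood at -0.160 and the 117 of level 10 and above at -0.083. The 17 detected probe sets shared with other genes had a median of -0.10, with a range of -0.969 to 0.142. The lowest of these named RPL17, a readthrough transcript and snoRNAs and lay at 5.75 in the control pool, while 3 probe sets that name RPL17 and lie above 13 in the control pool gave -0.144 to -0.053. The highest named RPL21 and a pseudogene (0.142). Ribosomal protein genes have many processed pseudogenes, and the share of their signal in these probe sets was not tested.

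RPLP1 and RPLP2 form the acidic stalk of the large subunit, which recruits the GTPase translation factors. RPLP1 stood at 14.28 and 14.29 in the control pool, 14.29 and 14.30 in the treated pool, and 14.24 and 14.22 in the opposite-side pool, and its treated and control arrays overlapped. RPLP2 stood at 13.82 and 13.84, 13.74 and 13.76, and 13.82 and 13.78 in the same order, a difference of -0.085 from the control pool, with the treated pair lowest. RPL5 and RPL11 bind the 5S ribosomal RNA and, outside the ribosome, the p53 regulator MDM2. RPL11 stood at 12.53 and 12.53 in the control pool, 12.37 and 12.36 in the treated pool, and 12.50 and 12.53 in the opposite-side pool (-0.166 against control), while RPL5 differed by 0.0055 with overlapping arrays. RPS3, at the mRNA entry of the small subunit, differed by -0.101 from control and -0.035 from the opposite side. None of these 5 genes passed the size rule in any comparison.

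Of the 8 like-named paralogues, RPL7L1, RPL22L1, RPL26L1, RPL36AL and RPS27L were detected. RPL22L1 stood at 11.53 and 11.55 in the control pool, 11.54 and 11.55 in the treated pool, and 11.59 and 11.55 in the opposite-side pool. Its partner RPL22 stood at 12.49 and 12.48, 12.35 and 12.37, and 12.53 and 12.52, with the treated pair lowest. The difference from control was thus 0.002 for RPL22L1, with overlapping arrays, and -0.125 for RPL22, with arrays apart. Under quantile normalization and spike-in scaling RPL22L1 was at -0.056 and -0.012. RPS27L, a target of p53, differed by -0.137 from the control pool and its partner RPS27 by -0.043. RPL7L1 differed by -0.028 and RPL7 by -0.038. RPL36AL differed by -0.0015 from control and -0.124 from the opposite side, and stood at 11.17 and 11.20 in the control pool, 11.18 and 11.19 in the treated pool, and 11.32 and 11.30 in the opposite-side pool, where it was highest. RPL26, the partner of RPL26L1, was not analysed here.

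**Figure D5:**
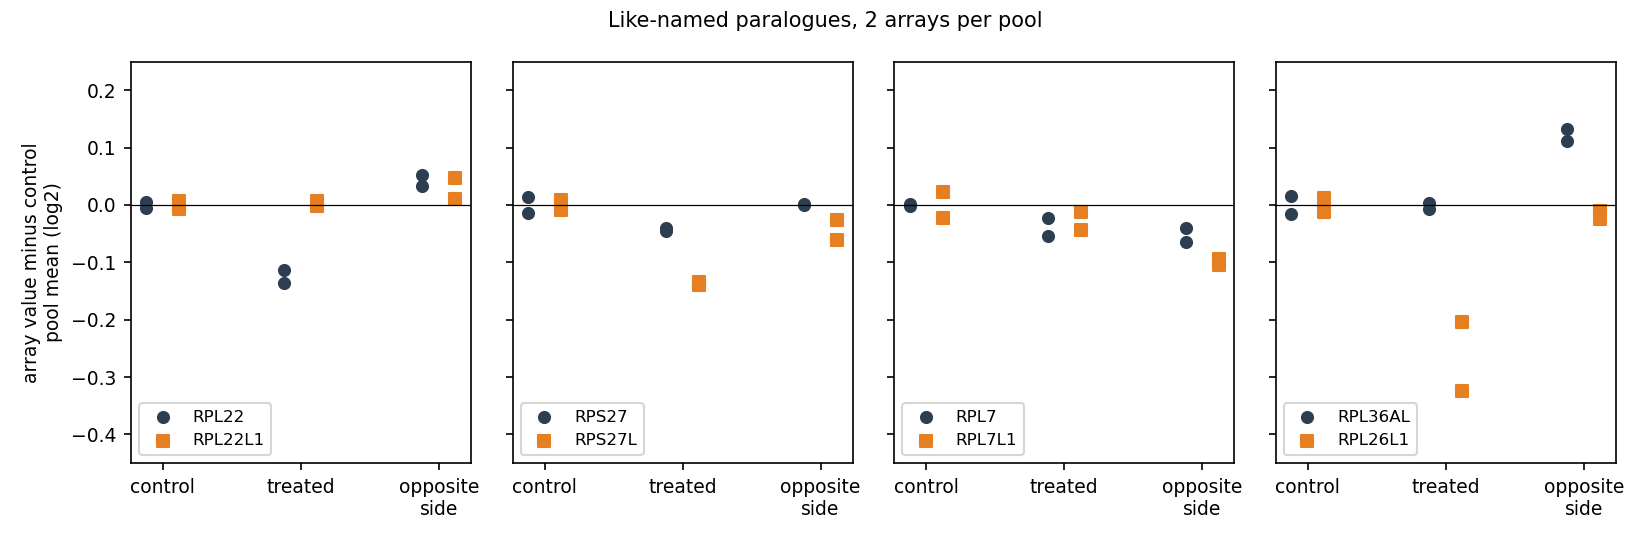
Value of each array minus the control pool mean of that gene (log2), 2 arrays per pool, for RPL22 and RPL22L1, RPS27 and RPS27L, RPL7 and RPL7L1, and, in the last panel, RPL36AL and RPL26L1, which are not partners of each other. RPL22 and RPL26L1 are lowest on the treated arrays (-0.125 and -0.265 for the pool means), while RPL22L1 stays at 0.002.

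The 4 undetected genes were RPL3L, known from striated muscle, RPL10L and RPL39L, known from testis, and RPL36A. RPL3L stood at the table's lowest value of 2.37 in all 3 pools, RPL39L at 2.37 to 2.38 and RPL10L at 2.53 to 2.54. The partners RPL3 (-0.162), RPL10 (-0.402) and RPL39 (-0.055) were detected. The own probe set of RPL36A lay at 3.36 to 3.39, while a probe set shared with the readthrough transcript RPL36A-HNRNPH2 lay at 13.42 in the control, 13.35 in the treated and 13.40 in the opposite-side pool. A low own probe set therefore does not show that RPL36A mRNA was missing. RPL17, RPL21, RPL28 and RPS26 were named only on probe sets shared with other genes. The stalk protein gene RPLP0 and the small subunit gene RPSA were not analysed here.

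Other genes of translation did not all stand as the ribosomal proteins did. FAU, which encodes RPS30 as a fusion protein, differed by -0.058 from control and -0.102 from the opposite side. Of 14 detected translation factors and other genes known for TOP mRNAs, the median was -0.0035 against control, with arrays apart below 0 for 6 and above 0 for 5 (42.9% and 35.7%, against 40.5% and 34.7% of all detected genes). It was -0.032 against the opposite side, with 9 below and 4 above (64.3% and 28.6%, against 33.3% and 38.6%). By the size rule the subunit EIF3E of the initiation factor eIF3 fell against control (-0.299), as did HNRNPA1, an RNA-binding protein (-0.316). VIM, the intermediate filament vimentin, rose (1.14). These shares of the list, 14.3% lower and 7.14% higher, were not above the 15.5% and 14.6% of all detected genes. HNRNPA1 was also lower in the unheated opposite-side pool (-0.237 against control, and -0.079 for treated minus opposite side). VIM, which is also on the fibroblast marker list, stood higher still in the unheated opposite-side pool (1.26 against control, and -0.128 for treated minus opposite side). The elongation factors EEF1A1 (0.028) and EEF2 (0.0075) and the ribosome assembly factor NPM1 (0.164) did not pass the size rule against control.

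Of 9 detected regulators of TOP mRNA translation, the median was 0.006 against control and 0.146 against the opposite side. Against the opposite side arrays lay apart above 0 for 7 and below 0 for 1 (77.8% and 11.1%, against 38.6% and 33.3% of all detected genes). By the size rule EIF4E (0.287), DDIT4 (0.287) and TSC1 (0.258) rose against the opposite side (33.3%, against 14.6% of all detected genes). For TSC1 the standard deviation of the treated arrays was 0.280, so these arrays lay further apart than the difference of 0.258. DDIT4 stood at -0.224 against control. The cap-binding protein EIF4E rose against control (0.489) and TSC2, an inhibitor upstream of mTOR, fell (-0.547). Each was 11.1% of the list, below the 14.6% and 15.5% of all detected genes. TSC2 was lower still in the unheated opposite-side pool (-0.694 against control, and 0.147 for treated minus opposite side). LARP1 stood at 0.095 against control. Of 73 detected mitochondrial ribosomal protein genes, which serve the separate ribosomes of mitochondria, the median was -0.075 against control, 0.019 against the opposite side and -0.063 for opposite side minus control. Arrays lay apart below 0 for 37 and above 0 for 17 against control (50.7% and 23.3%), where all detected genes had 40.5% and 34.7%. Against the opposite side 24 lay below and 26 above (32.9% and 35.6%), close to the 33.3% and 38.6% of all detected genes, and in opposite side minus control 40 and 14 (54.8% and 19.2%, against 42.4% and 34.0%). By the size rule 13 fell against control (17.8%, near the 15.5% of all detected genes) and 4 rose (5.48%, against 14.6%).

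Cell type markers also differed between the pools. Of 10 fibroblast and matrix markers 4 were detected, with a median of 0.904 in treated minus control. VIM (1.14), TAGLN (1.66) and COL1A1 (0.673) were higher, and FN1 stood at 0.012. The summed level of all 10, detected or not, was 8.57 to 8.71 on the log2 scale on the control arrays. It was 9.68 to 9.69 on the treated and 9.43 to 9.46 on the opposite-side arrays, while PDGFRB lay at or near the lowest value. Of 10 skeletal muscle markers 4 were detected, and by the size rule ACTA1 (2.17) and MYL11 (1.60) rose against control and TNNT1 fell (-0.446), while TNNT3 stood at 0.058. By that rule 14.6% of all detected genes rose and 15.5% fell. The summed levels of all 10 muscle markers were 8.02 to 8.06, 8.32 to 8.37 and 8.08 on the control, treated and opposite-side arrays, while MYL1 lay at 2.38 and CKM at 2.38 to 2.39. Of 12 colon epithelium markers 9 were detected, with a median of 0.124 in treated minus control. Arrays lay apart above 0 for 5 and below 0 for 3 (55.6% and 33.3%, against 34.7% and 40.5% of all detected genes). The lower ones were KRT19 (-0.084), LGALS4 (-0.093) and CEACAM5 (-0.133). The summed levels of all 12 were 14.99, 15.10 to 15.11 and 15.12 in the same order of pools, while CDX1 and GPA33 lay at the lowest value and CDX2 at 2.53. Of the leukocyte markers only LYZ was detected and of the endothelial markers only FLT1, and PTPRC and CDH5 lay at 2.42 to 2.43 and 2.37. In pooled tumour RNA fewer cells of a type and less RNA per cell cannot be told apart, and the part of these markers, or of mouse host RNA on human probes, in the ribosomal protein differences was not tested. The 40 detected spike-in control probe sets differed by a median of 0.105, 0.332 and -0.181 in treated minus control, treated minus opposite side and opposite side minus control. The 5′ probe set of the control gene ACTB differed by 1.12, -0.160 and 1.28, and that of GAPDH by -0.461, -0.450 and -0.011. Their 3′ probe sets differed by 0.227, 0.077 and 0.151 (ACTB) and -0.030, -0.030 and 0.0005 (GAPDH), so the 2 ends of each control mRNA differed unequally between pools, and the part of this in the results was not tested.

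In both comparisons with the treated pool, the members' median lay below that of all detected genes, as deposited and under quantile normalization. Median and spike-in scaling shift all genes of an array alike, so they could change this gap only through which genes were detected. In opposite side minus control the sign of this gap turned with quantile normalization. The median of members minus that of all detected genes was -0.067 in treated minus control as deposited, with arrays set to one median and with spike-in scaling, and -0.055 with quantile normalization. In treated minus opposite side it was -0.093, -0.093 and -0.090, and -0.054 with quantile normalization. For opposite side minus control it was 0.0045, 0.004 and 0.002, and -0.028 with quantile normalization.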

How the data were processed

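Total RNA of dissected frozen xenograft sections was measured on 6 one-colour Affymetrix arrays, 2 technical arrays for each of 3 pools. The authors' deposited table holds log2 values, a scale read from their range, made with GCRMA per the submitters' processing notes (version not given in the sources used here). GCRMA subtracts estimated background, brings arrays to common quantiles and combines the probes of a set, so a level is relative to the rest of its table. Arrays have no read depth, and their number limits the precision. The platform annotation named 1 gene on 41097 probe sets, several on 1801 and none on 11777, and 41043 were matched by their Entrez identifier. Promoter entries are from RefSeq (GRCh38.p14).

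The 2 arrays of a pool were averaged on the log2 scale and subtracted between pools. No model was fitted, since a group is 1 pool. The members, lists and rules were chosen with earlier results of these data known. The count of genes with arrays apart was added after seeing these data. Named genes were the 5 highest and 5 lowest members per comparison, the like-named paralogues and their partners, the stalk genes and RPSA, RPL5, RPL11, RPS3 and RPS6, the 5 widest ranges of level between probe sets, and the undetected members. RPL4, RPS2, RPS4X and RPS29, and genes of the other lists, were named after their values were seen. Alternatives were other levels for detection (4 and 6), other minimum differences (0.15, 0.4 and 1), linear averaging, array pairs not required to agree, other scalings, other probe set choices and leaving out each array. Values were computed with pandas 2.3.3 and numpy 2.4.6 under Python 3.11.15, and drawn with matplotlib 3.10.9.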

Additional observations from a re-analysis of the deposited data

How the results depend on the processing

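No paired analysis was possible because the results come from no test and the shared replicate numbers count technical arrays of different pools. Over all results and alternatives, 279 values stayed within the array error or within 1.5 times the count, 65 moved further and 7 changed sign. The causes were not tested except where the construction shows them. Some of the 279 could not change, and these say nothing about stability. An array of a pool outside a comparison does not enter the members' median there. Median and spike-in scaling leave the gap between subunits as it is while the same members are detected. The other levels for detection left the same members detected, so their medians and counts stayed fixed. The members' median in treated minus control was -0.075 with arrays set to one median, -0.065 with quantile normalization, -0.097 with one spike-in median, -0.163 with plain _at probe sets alone (26 genes detected) and -0.077 with shared probe sets added. In treated minus opposite side it was -0.106, -0.057, -0.269, -0.061 and -0.072 in that order, and -0.077 without like-named paralogues. In opposite side minus control it turned to 0.019 with one median and 0.161 with one spike-in median, and was -0.027 with quantile normalization and -0.067 with plain probe sets (25 genes). Leaving out each array in turn gave -0.083 to -0.076, -0.084 to -0.074 and -0.018 to -0.012 in the 3 comparisons.

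The gap of large minus small subunit was -0.011 (quantile) and -0.077 (plain probe sets) in treated minus control, and -0.029 to -0.011 leaving out arrays. In treated minus opposite side it was 0.016 (quantile), 0.0015 (plain) and -0.028 (median of a gene's probe sets), and -0.010 to 0.0005 leaving out arrays, above 0 only without treated array 2. In opposite side minus control it was 0.0011 (quantile) and -0.071 (plain), and -0.017 to 0.002 leaving out arrays, above 0 only without opposite-side array 1.

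Members lower against control numbered 19, 1 and 0 at minimum differences of 0.15, 0.4 and 1 (26.5%, 5.6% and 0.097% of all detected genes), with 5 by the median of probe sets, 6 by plain probe sets and 3 to 4 leaving out arrays. Members higher against control numbered 1 by the median of probe sets and 1 by plain probe sets. Members lower against the opposite side numbered 9, 0 and 0 at those minimum differences (19.2%, 3.38% and 0.0558% of all). They numbered 2 with one median (11.8% of all), 2 with quantile normalization (11% of all) and 39 with one spike-in median (33.9% of all). By the median of probe sets there were 2, and leaving out arrays gave 1 to 2 (2 without treated array 1 or without opposite-side array 1). By plain probe sets 1 was higher. In opposite side minus control 2 were lower at 0.15 (28% of all), 5 were lower by plain probe sets (25 genes detected), and 2 were higher with one spike-in median (31.4% of all). Counts by plain probe sets are over the fewer genes given above. For the probe set choices and for leaving out arrays, the share of all genes was not computed. Spike-in scaling moved the median of all detected genes to -0.179 in treated minus opposite side and 0.159 in opposite side minus control.

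Members with arrays apart against control were 3 higher with one spike-in median (32.5% of all detected genes), and 3 higher and 21 lower by plain probe sets. Against the opposite side 5 (one median), 0 (spike-in) and 4 (plain) were higher and 18 (plain) lower. Of all detected genes 33.2% (one median) and 13.1% (spike-in) were higher. In opposite side minus control 33 (one median), 65 (spike-in) and 3 (plain) were higher and 21, 0 and 14 lower. There 42.2% (one median) and 65.7% (spike-in) of all detected genes were higher, and 36% and 17.3% lower. The share of all genes was not computed for plain probe sets. The smaller counts by plain probe sets follow in part from the fewer genes. The median range between probe sets of a gene was 0.123 (quantile) and 0.297 (plain) against control, 0.136 against the opposite side at a detection level of 4 and 0.086 to 0.123 leaving out arrays, and 0.263 (plain) in opposite side minus control.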
